A study of Mus musculus with 24 samples.

Results

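In bone marrow-derived macrophages, 454 of 144411 ATAC-seq peaks were less accessible after dexamethasone (Dex) and near their vehicle level after interleukin 4 (IL4). ATAC-seq uses a transposase that cuts and tags open DNA, so the reads in a peak follow how accessible that stretch of chromatin is. The peaks were chosen from the wild-type (WT) libraries alone. Counts were turned into CPM (the count in a peak scaled to a common total of counts in peaks), and the group mean of log2(CPM + 0.5) after Dex had to lie at least 1 below that after vehicle. The mean after IL4 had to lie less than 0.5 from vehicle, and all 4 Dex libraries had to lie below all 4 vehicle libraries. The first condition was met by 1152 peaks, the second left 482, and the last removed 28. The WT values given here therefore describe the choice and carry no test, while the knockout (KO) libraries took no part in it.

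Macrophages were grown for 5 days in L-cell conditioned medium from the marrow of male C57BL/6 mice aged 8 to 10 weeks. WT cells were LysM-Cre+/+; GRIP1wt/wt and KO cells LysM-Cre+/+; GRIP1fl/fl, so the controls carry LysM-Cre too, and loss of GRIP1 depends on this recombinase acting in myeloid cells. Cells of each genotype were treated with vehicle, 100 nM Dex or 10 ng/ml IL4, which makes 6 groups of 4 libraries (24 libraries). Treatment lasted 24 h by the titles, and 25 h by a second label of the vehicle libraries. Separate mice per library are not stated, so a p-value here covers the spread between libraries, which may be technical.

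Dex is a synthetic agonist of the glucocorticoid receptor, a nuclear receptor that opens chromatin at many of its own binding sites and represses inflammatory genes, in part by acting on AP-1 and NF-kB. IL4 signals through STAT6 and drives an alternative, repair-associated macrophage state. GRIP1, encoded by Ncoa2, is a p160 coregulator that nuclear receptors recruit and that can act as a coactivator or a corepressor for the glucocorticoid receptor.

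The bases of most members were not analysed here. RefSeq promoter windows (GRCm38.p6, from 250 bases before to 50 after a gene's start) give sequence for the few members that overlap one. The whole windows of Hdac9 (chr12:34528840-34529139, minus strand) and Lancl3 (chrX:9199723-9200022, plus strand) lie inside members, as do stretches of the windows of Sdcbp2 (chr2:151572373-151572427, plus strand, 55 bases) and Gm39959 (chr2:151572021-151572275, minus strand, 255 bases), both in the same member. They are shown because these 4 are all the overlaps of a member with a window of that table. Capitals mark the AP-1 motif TGANTCA and the glucocorticoid receptor half-site AGAACA, whose reverse complement is TGTTCT, searched on both strands.
Hdac9: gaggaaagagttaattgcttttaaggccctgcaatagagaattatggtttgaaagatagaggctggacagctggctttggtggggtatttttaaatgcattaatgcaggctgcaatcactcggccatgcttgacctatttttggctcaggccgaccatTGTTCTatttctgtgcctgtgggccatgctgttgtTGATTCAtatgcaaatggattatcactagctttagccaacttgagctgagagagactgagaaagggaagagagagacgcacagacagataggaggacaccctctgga
Lancl3: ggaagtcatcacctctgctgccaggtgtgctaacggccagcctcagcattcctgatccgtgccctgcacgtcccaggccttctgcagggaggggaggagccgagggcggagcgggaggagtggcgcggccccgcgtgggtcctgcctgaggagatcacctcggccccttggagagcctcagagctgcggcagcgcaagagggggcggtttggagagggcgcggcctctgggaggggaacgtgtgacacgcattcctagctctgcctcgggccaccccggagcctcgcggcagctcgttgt
Sdcbp2: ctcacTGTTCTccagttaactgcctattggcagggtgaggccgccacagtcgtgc
Gm39959: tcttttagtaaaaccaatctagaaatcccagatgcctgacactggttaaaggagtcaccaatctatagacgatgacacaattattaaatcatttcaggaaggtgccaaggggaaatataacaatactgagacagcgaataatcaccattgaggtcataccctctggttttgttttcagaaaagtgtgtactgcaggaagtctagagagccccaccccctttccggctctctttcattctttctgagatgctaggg

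The Hdac9 window held 1 AP-1 match and 1 half-site match, the Sdcbp2 stretch held 1 half-site match, and the Lancl3 window and the Gm39959 stretch held neither. Among 32851 RefSeq promoter windows, 7.81% held the AP-1 motif and 19.0% the half-site. The PU.1 motif GAGGAAG (13.6% of windows) and the E-box CACGTG (7.15%) were found in none of the 4 sequences. The Hdac9 window had 3 CpG dinucleotides and a GC content of 45.3%, the Lancl3 window 23 and 69.0%, beside medians of 7 and 52.7% over all windows. A match describes letters, not a bound site.

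The libraries held 5820149 to 21939330 counts in peaks. WT Dex replicate 2 stood apart: it had the lowest total, and 13 members were at 0 in it and in no other library. Of all peaks, 2.57% were at 0 in it, against at most 0.862% in any other library. The group means and the order of the libraries both enter the rule, so single WT libraries bear on who is a member. Without WT Dex replicate 1 the rule chose 754 peaks, of which 425 were among the 454. With all libraries in, the condition on their order removed only 28 peaks. Of the macrophage markers, 9 of 9 genes had a peak within 1 kb of their transcription start site (TSS), with a summed level of 253 to 298 CPM in vehicle and Dex libraries and a lower one with IL4 (234 to 243 CPM in WT, 237 to 249 CPM in KO). Peaks at the starts of 4 of 7 neutrophil marker genes summed to 25.2 to 34.7 CPM in WT vehicle and 38.0 to 41.9 in WT Dex, and to 25.3 to 37.3 in KO vehicle and 40.9 to 45.7 in KO Dex. Peaks at the starts of 3 of 6 B cell marker genes summed to less with Dex (8.08 to 9.40 CPM against 9.45 to 11.5 in WT, 7.60 to 8.72 against 9.25 to 11.7 in KO). With IL4, the start peak of 1 of 6 fibroblast marker genes went from 2.42 to 2.89 CPM in WT vehicle to 5.40 to 7.29 CPM and that of 1 of 6 erythroid and megakaryocyte marker genes from 17.2 to 20.5 to 30.2 to 34.4 CPM, and both were also higher with IL4 in KO, without overlap. No member was assigned to any marker gene. The marker lists held 6 to 79 assigned peaks each, and at 0.314% of all peaks few or no members could be expected. The part of other cell types in the results below was not tested. At the targeted gene, 36 peaks inside Ncoa2 differed between KO and WT vehicle by -1.15 to 1.14 on the log2 scale. Accessibility outside the deleted stretch does not check the genotype.

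Under vehicle the members were somewhat more accessible than the typical peak. Their median level was 4.16 CPM in WT vehicle, 1.56 CPM after Dex and 3.98 CPM after IL4, whereas the medians over all peaks were 2.25, 2.11 and 2.61 CPM. In single WT libraries the median over the members ran from 3.97 to 4.36 CPM with vehicle, from 1.20 to 1.79 CPM with Dex and from 3.74 to 4.26 CPM with IL4. The members held 0.241% to 0.254% of all counts in WT vehicle libraries and 0.0772% to 0.122% in WT Dex libraries. In bulk libraries, fewer cells with an open site and a less open site in each cell cannot be told apart.

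**Figure D1:**
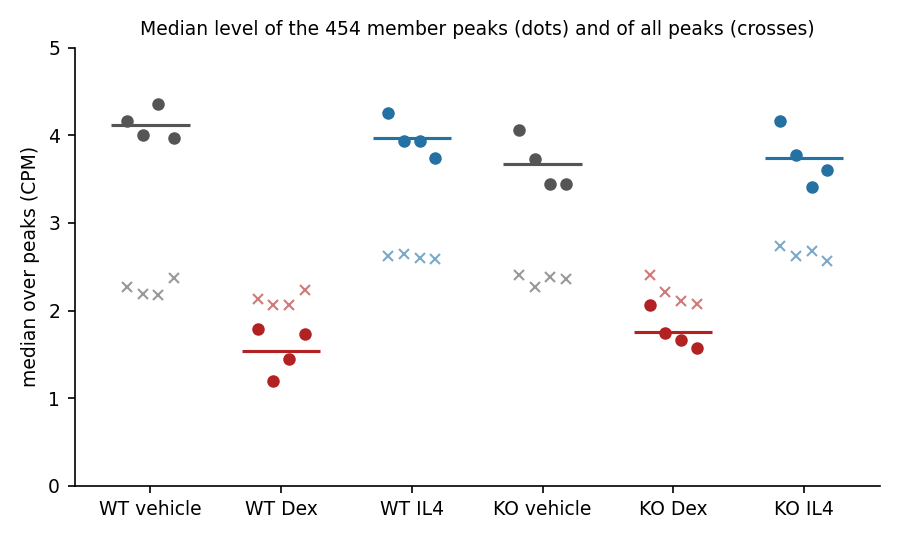
Median over the 454 member peaks (dots) and over all peaks (crosses) in each library, in CPM, with 4 libraries per group and a bar at the mean of the 4 member medians. Dex libraries of both genotypes lie at 1.20 to 2.06 CPM for the members, and vehicle and IL4 libraries at 3.41 to 4.36 CPM, while the crosses stay close together.

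On the log2(CPM + 0.5) scale, which understates the change of peaks with few reads, the WT Dex difference from vehicle ran from -1.88 to -1.0 with a median of -1.12. The WT IL4 difference had a median of -0.02 and was above 0 for 214 members and below 0 for 240. Both limits cut through a continuous range. Just inside the Dex limit lay peaks assigned to Limch1, Eef1akmt2 and Inpp4b (-1.0007 to -1.0), and just outside lay Dlgap2, Map3k4 and Golm1 (-0.9999 to -0.9986). At the IL4 limit, Kif19a (-0.4996), Mast2 (-0.4965) and 0610039H22Rik (0.4963) were just inside and Magi2 (-0.5041), Mapre2 (0.5056) and an unassigned peak (-0.5042) just outside.

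The WT peaks with the largest Dex differences lay near genes with varied roles. The peak with a high vehicle level among them, chr2:126231722-126232117, lay 79.8 kb downstream of the start of Dtwd1, which encodes a tRNA-modifying enzyme. It measured 21.9, 15, 15.8 and 15.1 CPM in WT vehicle replicates 1 to 4, 9.84, 2.92, 3.06 and 3.65 CPM in WT Dex, and 27.8, 21.0, 20.5 and 21.6 CPM in WT IL4. All 4 Dex libraries lay below every vehicle and IL4 library, and replicate 1 was the highest in each WT group. In KO cells the same peak measured 15.9, 13.4, 14.4 and 15.6 CPM with vehicle, 3.21, 3.82, 4.67 and 3.36 CPM with Dex and 21.1, 24.2, 19.6 and 22.8 CPM with IL4. The KO groups did not overlap: Dex was lowest and IL4 highest. The KO log2 fold change was -1.92 ± 0.13 (SE) for Dex (edgeR quasi-likelihood test, Benjamini-Hochberg adjusted p = 1.37e-21) and 0.54 ± 0.10 for IL4 (adjusted p = 8.62e-06). With all 24 libraries in the fit the IL4 value was 0.53 and did not pass.

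A peak 99.2 kb downstream of the start of Bcl2l11 (chr2:128226515-128226965), the gene for the pro-apoptotic BH3-only protein Bim, measured 6.81, 5.04, 4.67 and 5.36 CPM in WT vehicle and 1.60, 0.687, 0.994 and 1.28 CPM in WT Dex. WT IL4 libraries gave 5.95 to 7.0 CPM, within and just above the vehicle range. In KO cells it measured 5.97, 4.47, 3.58 and 4.35 CPM with vehicle and 2.01, 1.41, 1.66 and 1.57 CPM with Dex. The KO Dex libraries again lay below all KO vehicle libraries, and the log2 fold change was -1.43 ± 0.19 (adjusted p = 1.40e-08). IL4 gave 4.96 to 6.79 CPM in KO, a log2 fold change of 0.29 ± 0.16 that did not pass the test (adjusted p = 0.157).

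The other 8 members with the lowest WT Dex differences were assigned to Pign, Usp47, Nek11, Neurog3, A530072M11Rik, Tgds, Ank and Parp11, and all 8 fell in KO Dex as well. A peak inside Pign, which encodes an enzyme of GPI anchor synthesis, went from 6.80 ± 0.565 to 1.66 ± 0.549 CPM in WT (SD, n = 4) and from 5.21 ± 0.972 to 2.23 ± 0.125 CPM in KO, where it rose with IL4 by 0.52 ± 0.14 (SE) on the log2 scale. A peak 15.5 kb from the start of Neurog3, a basic helix-loop-helix factor of endocrine pancreas development, went from 9.21 to 2.55 CPM in WT and from 7.38 to 2.26 CPM in KO. The peak inside Nek11, a kinase gene, went the other way with IL4: in KO it fell with Dex by 1.73 ± 0.24 and also with IL4 by 1.03 ± 0.22 on the log2 scale (adjusted p = 0.000164). Near Usp47, a deubiquitinase gene, the KO Dex value was -1.59 ± 0.21 and the KO IL4 value 0.05 ± 0.18 (adjusted p = 0.876).

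**Figure D2:**
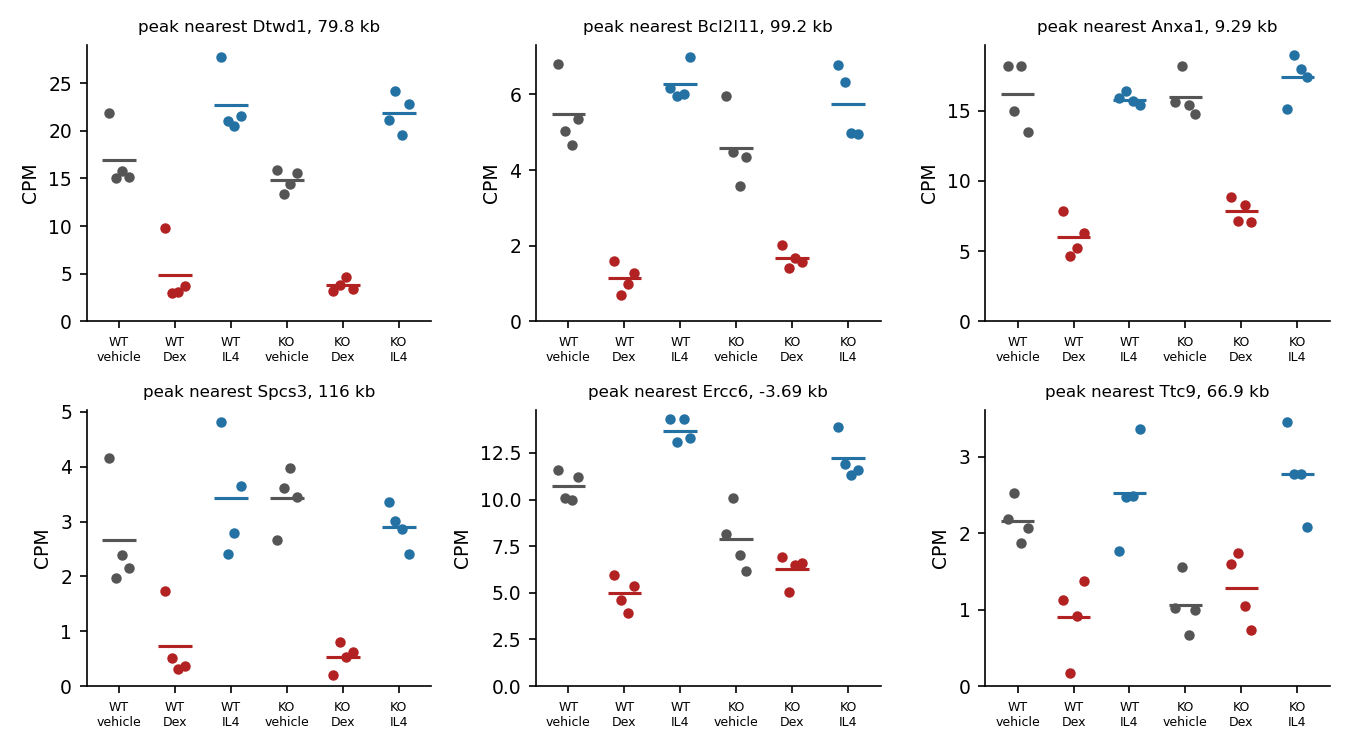
CPM of 6 member peaks in each library, with a bar at the mean of the 4 libraries of a group; titles give the nearest gene and the distance to its TSS. Dex libraries lie below vehicle and IL4 in both genotypes at the peaks near Dtwd1, Bcl2l11, Anxa1 and Spcs3, whereas at Ercc6 (-3.69 kb) KO Dex overlaps KO vehicle and at Ttc9 KO vehicle is at the level of KO Dex.

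Whether the loss recurred in macrophages with floxed GRIP1 was asked by fitting the 12 KO libraries alone. In that fit 449 members passed the filter on low counts and 5 did not. Of the 449, 389 fell with Dex (86.6%), while 7.14% of all 125167 tested peaks were called lower. None rose by edgeR, by DESeq2 or at an unadjusted p below 0.05, and 6.92% of all tested peaks were called higher. The log2 fold change was negative for 448 of the 449, with a median of -1.03 (quartiles -1.28 and -0.81), and the median over all tested peaks was -0.01. A fall of at least 2-fold was found for 239 of the called members, beside 2120 called peaks among all 125167 tested. By level alone, all 4 KO Dex libraries lay below all 4 KO vehicle libraries at 364 of the 454 members (80.2%), beside 8.63% of all peaks.

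**Figure D3:**
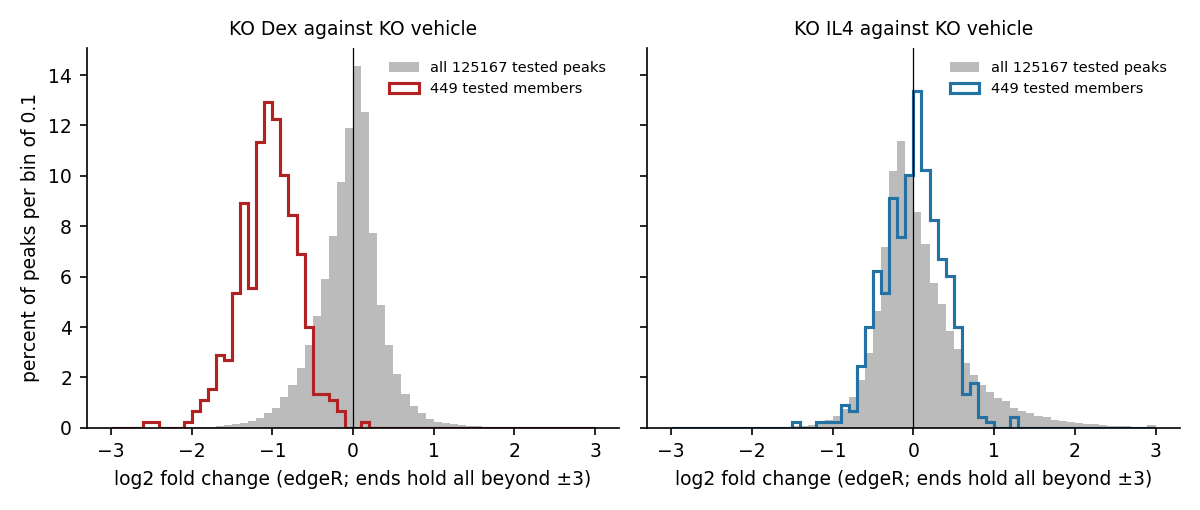
Distribution of KO log2 fold changes for Dex (left) and IL4 (right) against vehicle, as percent of peaks per bin of 0.1, for the 449 tested members (outline) and all 125167 tested peaks (grey). The members are shifted to a median of -1.03 with Dex and centred at 0.03 with IL4.

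The share called followed the level of a peak, and the size of the change did so less. With the members split into 4 classes of equal size by KO vehicle level, 66 of 108 tested members of the lowest class were called (61.1%) at a median log2 fold change of -0.94. In the 3 higher classes 86.8%, 98.2% and 99.1% were called, at medians of -1.03, -1.04 and -1.05.

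**Figure D4:**
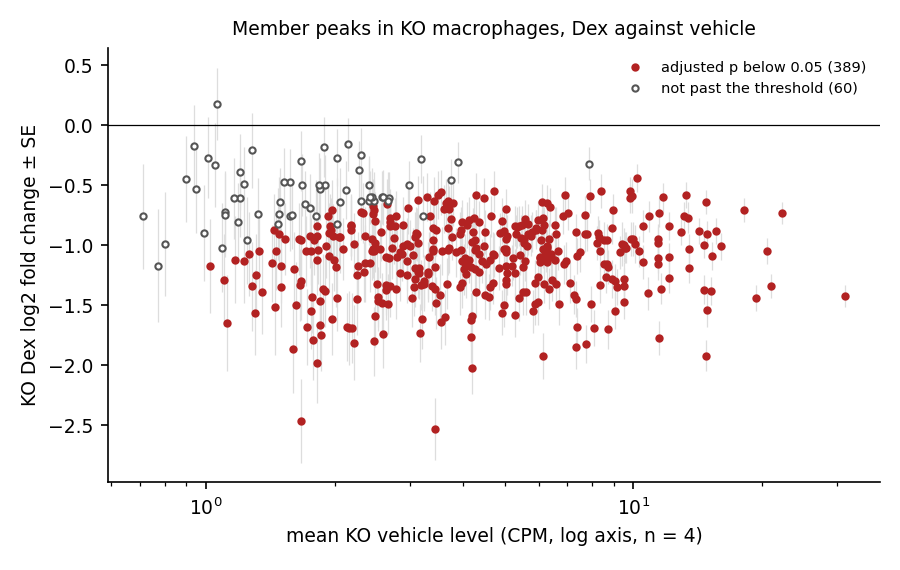
KO Dex log2 fold change ± SE of the 449 tested members against their mean KO vehicle level (CPM, log axis, 4 libraries). The 389 members past the threshold (filled) cover the whole range of levels, and the open points without a call lie mostly at low levels.

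The 10 largest KO falls lay at varied distances from gene starts. A peak 116 kb downstream of the start of Spcs3 (chr8:54414180-54414585), which encodes a subunit of the signal peptidase, measured 2.67, 3.62, 3.97 and 3.45 CPM in KO vehicle and 0.201, 0.805, 0.527 and 0.616 CPM in KO Dex, with no overlap. Its log2 fold change was -2.53 ± 0.26 (adjusted p = 1.67e-12), and KO IL4 libraries held 2.40 to 3.35 CPM. A peak at -349 kb from Cnksr2, a scaffold gene of Ras signalling, went from 1.67 ± 0.304 to 0.274 ± 0.092 CPM in KO (SD, n = 4), a log2 fold change of -2.46 ± 0.35. At a peak assigned to Plk2, a polo-like kinase gene 239 kb away (the nearest start in the RefSeq promoter table lay 5633 bases off), KO vehicle libraries held 3.45 to 4.63 CPM and KO Dex libraries 0.738 to 1.43 CPM (-2.02 ± 0.22). The remaining 7 of the 10 largest falls lay at peaks assigned to Mid1 (-1.98), Dtwd1 (-1.92), 9430078K24Rik (-1.92), Gm8633 (-1.85), 4933411E08Rik (-1.82) and Plxna4 (-1.81), and at an unassigned peak on chromosome 6 (-1.86).

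At the other end, the 5 members with the highest KO Dex values lay near 0. On the log2(CPM + 0.5) scale, 43 members had a KO Dex difference above -0.5. The peak 66.9 kb from Ttc9 (chr12:81697945-81698328) measured 2.19, 2.52, 1.87 and 2.06 CPM in WT vehicle and 1.13, 0.172, 0.917 and 1.37 CPM in WT Dex. In KO it measured 1.02, 1.56, 0.662 and 0.998 CPM with vehicle and 1.60, 1.74, 1.05 and 0.728 CPM with Dex, and these groups overlapped (0.18 ± 0.30, adjusted p = 0.753). Its KO vehicle level thus already lay below all 4 WT vehicle libraries, and in KO it rose with IL4 to 2.08 to 3.45 CPM (1.24 ± 0.26, adjusted p = 0.000105). Values for the other 4 were -0.16 ± 0.22 at Adarb1, an RNA-editing adenosine deaminase gene, -0.17 ± 0.34 at Apbb2, -0.18 ± 0.25 at Plcd3 and -0.21 ± 0.31 at a peak inside Trim9. Each of the 5 had a KO vehicle mean of 0.938 to 2.15 CPM, and none of their adjusted p-values was below 0.702.

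Vehicle levels differed between genotypes at some members, given as values with no test because the rule used the WT levels. A member near Msc (chr1:14781257-14781694) measured 5.12 CPM in WT vehicle and 2.13 CPM in KO vehicle. On chromosome 9, a member near Tpm1, a tropomyosin gene (chr9:67073445-67074067), measured 4.62 and 2.06 CPM. Another near Tcf12 (chr9:72166197-72166940) measured 5.59 and 2.87 CPM. In the other direction, a member inside Zfat (chr15:68128006-68128433) held 1.21 to 1.87 CPM in WT vehicle and 5.21 to 8.45 CPM in KO vehicle, without overlap. With Dex the Zfat peak still fell in KO, to 2.81 to 3.76 CPM (-1.05 ± 0.16, adjusted p = 6.17e-07), and so ended above the WT vehicle level.

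The same rule applied to the KO groups chose 296 peaks. Of these, 128 were also among the 454, which is 28.2% of the WT-chosen and 43.2% of the KO-chosen peaks. Of the 326 members not chosen in KO, 308 had a KO Dex difference above -1, 57 a KO IL4 difference of at least 0.5 in size, and 90 had overlapping Dex and vehicle libraries. Even so, 261 of the 321 tested among them fell in KO Dex (81.3%), with a median log2 fold change of -0.91. On the log2(CPM + 0.5) scale the Dex differences of the WT-chosen peaks had medians of -1.12 in WT and -0.86 in KO, and those of the KO-chosen peaks -1.06 in WT and -1.11 in KO. In each list the genotype used for choosing had the larger median fall, and the difference between genotypes was not tested.

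IL4 left most members near their vehicle level in KO too. Among the 449 tested, 47 were lower (10.5%, beside 13.8% of all tested peaks) and 55 higher (12.2%, beside 17.3%), with a median log2 fold change of 0.03 and quartiles of -0.24 and 0.27. Both shares lay below those of all tested peaks, but the members were chosen for a small WT IL4 difference and all tested peaks were not. In each direction 3 called members changed at least 2-fold, beside 1240 lower and 8648 higher among all 125167 tested peaks. The count of 55 was 34 by DESeq2 and 33 without KO vehicle replicate 4. Most members had no KO IL4 call. Of the 213 tested members with a WT IL4 difference above 0, 54 were higher (25.4%) and 0 lower in KO, beside 10.9% and 1.2% of all tested peaks with a WT difference above 0 and under 0.5. Of the 236 below 0, 1 was higher (0.424%) and 47 lower (19.9%), beside 0.275% and 24.2% of all tested peaks with a WT difference of that sign and size. The difference between members and other peaks was not tested. The IL4 and Dex contrasts share the KO vehicle libraries.

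The largest KO IL4 values went both ways. Besides Ttc9 and Nek11, a peak at -27.5 kb from Rgs13, a regulator of G protein signalling, measured 3.17, 1.85, 2.91 and 1.72 CPM in KO vehicle and 7.40, 4.86, 5.35 and 4.72 CPM in KO IL4 (1.22 ± 0.29, adjusted p = 0.00351). Its KO Dex libraries, at 0.504 to 2.81 CPM, overlapped vehicle, and the value of -0.63 ± 0.37 did not pass the test (adjusted p = 0.307). Without KO Dex replicate 1, the highest of the 4, it was -0.96 and passed. A peak 29.0 kb from Lbh went the other way: KO vehicle libraries held 1.40 to 2.0 CPM and KO IL4 libraries 0.369 to 1.0 CPM (-1.44 ± 0.33, adjusted p = 0.000410). In WT its IL4 libraries held 0.676 to 1.25 CPM and its vehicle libraries 1.34 to 1.74 CPM. A peak 172 kb from 2610035D17Rik fell in KO with both Dex (-1.38 ± 0.30) and IL4 (-1.18 ± 0.30).

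Set directly against each other in KO, IL4 left 400 of the 449 tested members higher than Dex did (89.1%, beside 22.4% of all tested peaks). None was lower with IL4, by edgeR, by DESeq2 or at an unadjusted p below 0.05, while 20.5% of all tested peaks were. The median difference was 1.02 (quartiles 0.75 and 1.32), and it was positive for 447 of the 449. The 2 exceptions, neither past the threshold, were the peak near Lbh (-0.49 ± 0.36, adjusted p = 0.288) and an unassigned peak on chromosome 19 (-0.23 ± 0.26).

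Peaks chosen by related rules in WT moved in KO in the direction of their own choice. Of 560 tested peaks opened by Dex and not by IL4, 543 rose in KO Dex (97.0%) with a median log2 fold change of 1.34. Of 176 tested peaks closed by both agents, 174 fell with Dex (98.9%, median -1.49) and 175 with IL4 (99.4%, median -1.46), whereas the members had a KO IL4 median of 0.03. These differences were not tested.

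Most members lay away from gene starts. The authors' table of compared peaks, which gives the distance from a peak's middle to the nearest TSS, held 373 members (82.2%) and 49.8% of all peaks. Of these members 4 lay within 1 kb of a TSS (1.07%), beside 9.66% of all peaks in that table. At 100 kb or more lay 63 members (16.9%), beside 9.65% of all peaks, and the median distance was 31.8 kb against 17.9 kb. Among peaks opened by Dex and not by IL4, 2.60% lay within 1 kb and 14.7% at 100 kb or more, so distal position was common to the Dex-responsive peaks compared here. With RefSeq starts, 1.61% of the members and 10.5% of all peaks lay within 1 kb. The members overlapped a FANTOM enhancer, as the authors' table marks it, at 12.6%, close to the 13.8% of all peaks in that table.

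**Figure D5:**
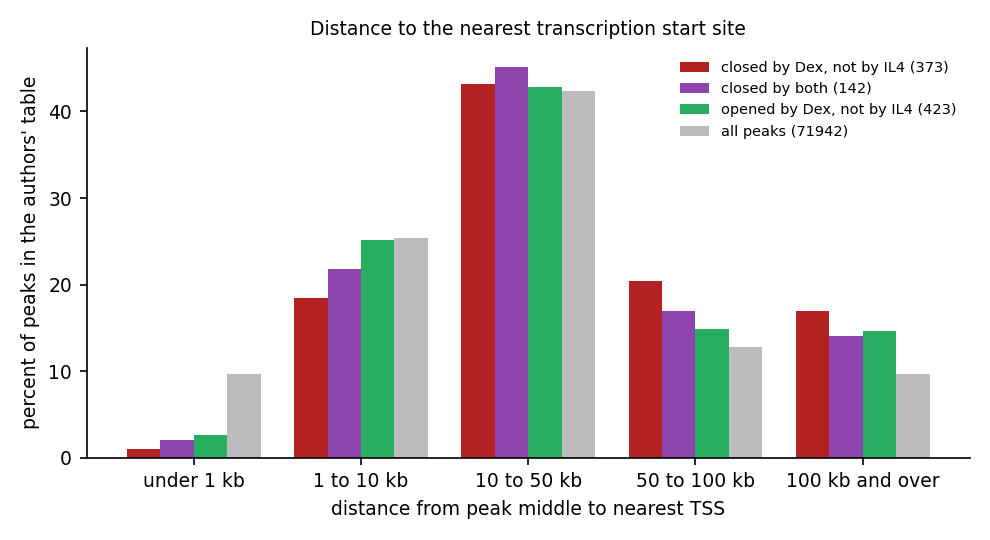
Percent of the peaks in the authors' table by distance from the peak's middle to the nearest TSS, for the members (373 peaks), peaks closed by both agents, peaks opened by Dex and not by IL4, and all peaks. Within 1 kb lie 1.07% of the members and 9.66% of all peaks, and at 100 kb or more 16.9% and 9.65%.

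The size of the KO change was similar in members of different location, without a test of the difference. The median KO Dex log2 fold change was -1.02 within 10 kb of a TSS, -1.03 beyond it and -1.12 at 100 kb or more, and -1.03 in members with a FANTOM enhancer. Inside RefSeq gene spans lay 262 members (57.7%, beside 65.2% of all peaks), with a KO median of -1.0, and the 192 outside had -1.05. Members had a median length of 443.5 bases, against 392 over all peaks, and 13 of them (2.86%) were 1 kb or longer, against 9.26% of all peaks. By chromosome, members made up 0.22% of the peaks on chromosome 2, 0.525% on chromosome 12 and 0.521% on the X, beside 0.314% overall.

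The members near a gene start were few. The Hdac9 peak (chr12:34528403-34529490), whose promoter sequence with its AP-1 and half-site matches is given above, covers the start of a class IIa histone deacetylase gene. It measured 8.02, 7.24, 5.19 and 5.88 CPM in WT vehicle, 3.19, 2.06, 2.90 and 2.92 CPM in WT Dex and 8.02, 12.3, 9.03 and 7.87 CPM in WT IL4. In KO it measured 7.62, 6.96, 5.30 and 5.26 CPM with vehicle and 4.71, 3.49, 1.81 and 2.52 CPM with Dex. The Dex libraries lay below the vehicle libraries in both genotypes, with a KO value of -1.01 ± 0.17 (adjusted p = 6.81e-06). With IL4 the KO level rose by 0.46 ± 0.15 (adjusted p = 0.0122), a call that was lost without KO vehicle replicate 3 (0.39) or 4 (0.37).

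At the CpG-rich promoter of Lancl3 (chrX:9199649-9200952), WT vehicle libraries held 13.9 to 15.3 CPM, WT Dex libraries 6.12 to 8.18 CPM and WT IL4 libraries 10.0 to 11.2 CPM. KO libraries held 13.2, 15.3, 11.0 and 14.5 CPM with vehicle, 6.92, 7.24, 6.17 and 5.88 CPM with Dex and 11.5, 10.1, 10.8 and 11.5 CPM with IL4. The IL4 level was thus between those of Dex and vehicle in WT, and in KO it overlapped the vehicle range. The KO values were -1.03 ± 0.12 for Dex (adjusted p = 5.75e-11) and -0.36 ± 0.11 for IL4 (adjusted p = 0.00719). The IL4 value did not pass without KO vehicle replicate 2 (-0.29). The other members within 1 kb fell in KO Dex at Sdcbp2, a syntenin gene (-0.93 ± 0.21), E230016K23Rik (-1.14 ± 0.14), Trim37, an E3 ubiquitin ligase gene (-0.85 ± 0.17), and Gmpr, a GMP reductase gene (-0.76 ± 0.20). The Gmpr call was lost without KO vehicle replicate 2 (-0.64). In the RefSeq promoter table the nearest starts to the Trim37 and Gmpr peaks lay 62414 and 3565 bases away.

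The members were spread over many genes. The 409 members with an assigned gene fell to 382 genes, 21 of which had more than 1 member, and 45 members had none. An assigned gene is the nearest by position and need not be the one regulated. Within 50 kb of another member lay 52 members, in 24 groups of at most 3. The nearest peaks that were not members, at a median of 3.5 kb, fell in KO Dex at 89 of 392 tested (22.7%). Of all tested peaks 7.14% were called lower. The median log2 fold change of these neighbours was -0.26. Within 2 kb the share was 35.0% and the median -0.44, both short of the members' own values. Members, which were chosen for a fall in WT, were not counted as neighbours.

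Spcs3, Plxna4, 4933427D06Rik, Ercc6, Frmd6 and Fat3 had 3 members each, among 10 to 33 peaks per gene. The 3 at Spcs3 fell in KO Dex, with log2 fold changes of -2.53 ± 0.26, -1.69 ± 0.15 and -1.50 ± 0.18, and the 3 at Plxna4, a semaphorin receptor gene, with -1.81 ± 0.31, -1.33 ± 0.15 and -1.28 ± 0.16. At Frmd6, a FERM-domain gene linked to the Hippo pathway, the values were -0.83, -0.90 and -0.90, and the last call, at the peak 19.9 kb from the start, was lost without KO vehicle replicate 2 (-0.80) or 4 (-0.79). Members at Fat3, an atypical cadherin gene, gave -0.81, -0.66 and -0.63, of which the last did not pass the test (adjusted p = 0.0688). It passed without KO Dex replicate 1 (-0.72) or KO vehicle replicate 4 (-0.74). The call at -0.66 was lost with DESeq2 and without KO vehicle replicate 4 (-0.56) or KO Dex replicate 1, 3 or 4 (-0.65 to -0.62).

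Ercc6, which encodes the CSB protein of transcription-coupled DNA repair, had members that did not behave alike in KO. The peak at 2.86 kb (chr14:32516130-32516627) measured 18.4, 14.6, 14.6 and 13.7 CPM in KO vehicle and 6.72, 6.04, 8.35 and 6.61 CPM in KO Dex (-1.09 ± 0.12, adjusted p = 1.26e-11), and the peak at -23.7 kb gave -1.02 ± 0.16. The peak between them at -3.69 kb (chr14:32509524-32510130) measured 11.6, 10.1, 9.97 and 11.2 CPM in WT vehicle and 5.98, 4.64, 3.90 and 5.38 CPM in WT Dex. In KO it measured 8.13, 10.1, 7.02 and 6.17 CPM with vehicle and 6.92, 5.03, 6.47 and 6.61 CPM with Dex, which overlapped, and its value of -0.32 ± 0.14 did not pass the test (adjusted p = 0.112). Without KO vehicle replicate 4 it was -0.42 and passed. The same middle peak rose with IL4 in KO (0.56 ± 0.13, adjusted p = 0.000238).

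The share of members in the inflammatory and macrophage gene lists was near that of all peaks. Over 12 lists of pathway genes, 13 of 4123 assigned peaks were members (0.315%), beside 0.390% of all peaks with a gene and 0.314% of all peaks. NF-kB subunits and feedback regulators (221 peaks) and antigen presentation and costimulation genes (118 peaks) held none, and at these overall shares a list of that size could be expected to hold 1 or none. Of the 13, 10 fell in KO Dex and 3 did not pass the test.

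Among signalling molecules and their receptors, the member at -16.7 kb from Cxcl1, a neutrophil chemokine gene (chr5:90874401-90874661), measured 2.95, 1.86, 2.39 and 2.68 CPM in WT vehicle and 1.86, 0.515, 0.382 and 1.19 CPM in WT Dex. In KO it went from 4.57, 2.56, 3.31 and 2.36 CPM to 0.702, 0.872, 1.20 and 1.01 CPM, without overlap (-1.61 ± 0.25, adjusted p = 4.42e-07). The member assigned to Tlr4, the lipopolysaccharide receptor gene, lay 329 kb away and fell in KO from 2.90 to 3.83 CPM to 1.21 to 1.81 CPM (-1.24 ± 0.21). The member 31.8 kb from Ifnb1, the interferon beta gene, went from 3.74 ± 0.575 to 2.50 ± 0.395 CPM in KO (SD, n = 4). Its value of -0.46 ± 0.18 did not pass the test (adjusted p = 0.0817), though with scaling by total counts it was -0.51 and passed. Members assigned to the growth factor gene Vegfa (144 kb, and 409 bases from a start in the RefSeq promoter table, inside 4930542M03Rik) and the integrin gene Itgb1 (-18.8 kb) fell too (-1.56 ± 0.19 and -1.0 ± 0.14).

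Among intracellular regulators, the member inside Dusp10, a phosphatase of JNK and p38, fell in KO (-1.74 ± 0.28). The member inside Dock2, a Rac activator of leukocyte migration (chr11:34525437-34525874), measured 7.87, 9.79, 7.68 and 11.3 CPM in KO vehicle, 2.81, 3.82, 3.31 and 3.92 CPM in KO Dex and 15.2, 15.6, 10.5 and 14.6 CPM in KO IL4. Dex libraries were below and 3 of 4 IL4 libraries above the whole vehicle range, with values of -1.35 ± 0.15 and 0.54 ± 0.12 (adjusted p = 0.000334). At Dock4 the KO Dex value of -0.37 ± 0.24 did not pass the test (adjusted p = 0.338). Among transcription factors, members fell in KO at Mitf (-1.05 ± 0.25), at Maf (518 kb, -0.95 ± 0.23) and at Fosl2, an AP-1 subunit gene (-0.63 ± 0.20, adjusted p = 0.0209). The Fosl2 call was lost with DESeq2 (-0.64) and when KO Dex replicate 3 or 4 or KO vehicle replicate 3 or 4 was left out (-0.62 to -0.51).

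Anxa1, which encodes an anti-inflammatory annexin induced by glucocorticoids in many cells, was the glucocorticoid receptor target with a member. This peak inside the gene, 9.29 kb from its start (chr19:20381111-20381650), measured 18.2, 15, 18.2 and 13.5 CPM in WT vehicle, 7.84, 4.64, 5.20 and 6.29 CPM in WT Dex and 15.4 to 16.4 CPM in WT IL4. In KO it measured 15.6, 18.2, 15.4 and 14.8 CPM with vehicle, 8.83, 7.18, 8.28 and 7.06 CPM with Dex and 15.1 to 19.0 CPM with IL4. Dex libraries lay below all others in both genotypes, with KO values of -1.01 ± 0.11 for Dex (adjusted p = 9.14e-12) and 0.08 ± 0.10 for IL4 (adjusted p = 0.605). At Lpl, the lipoprotein lipase gene, the KO Dex value of -0.76 ± 0.34 did not pass the test (adjusted p = 0.176), and without KO vehicle replicate 4 it was -0.99 and passed.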

How the data were processed

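ATAC-seq was read in 24 libraries, 4 in each of 6 groups, grouped and numbered by the sample titles. The authors deposited raw read counts per peak (whole numbers, not normalised), and a table of log2 fold changes and p-values of their comparisons, with each peak's nearest TSS; the distances and the FANTOM mark were used and the deposited log2 fold changes and p-values were not used. The authors' true or false marks are score columns. Per the submitters' processing notes, fastp, Bowtie2, SAMtools, MACS2, featureCounts, edgeR and the mm10 build were used, with roles and settings not given. Members and lists were chosen with earlier results of these data known.

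The rule was applied to CPM of the column sums. KO counts were fitted with edgeR 4.0.16 (R 4.3.3): filterByExpr, TMM factors, a robust quasi-likelihood fit with a mean per group over 12 KO libraries, F tests, and Benjamini-Hochberg adjustment over all 125167 tested peaks at 0.05. The SE is the log2 fold change divided by the square root of F. The test was checked on simulated counts. A peak missing from the authors' table was assigned to the nearest TSS of that table if under 50000 bases away and if no gene outside that table was nearer; promoter sequences and gene spans are from RefSeq (GRCm38.p6). Negative distances are upstream. Named members were the 10 lowest in WT Dex, the 10 largest falls and 5 highest values in KO Dex, the 5 largest KO IL4 calls, the genes with most members, members within 1 kb of a TSS, list genes and those at the limits. The peaks of the genotype comparison (Msc, Tpm1, Tcf12, Zfat) were chosen after their values were seen. Alternatives were DESeq2 1.42.0, other scaling, no filter, all 24 libraries, a replicate block, other limits in the rule and leaving out each library. No 2 libraries of a group held identical counts: over the 36 pairs, chi-square per degree of freedom was 1.1 to 2.16. Values near 1 cannot tell separate samples from repeated sequencing of the same sample.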

Additional observations from a re-analysis of the deposited data

Results flagged for a closer look

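In 21 of 432 groups of 4 libraries (the 70 named members, and the members' summed share and median level, in each of the 6 groups), 1 library stood far from the other 3. Chance flags about 1 in 20 such groups. At the Dtwd1 peak, replicate 1 was the high library in all 3 WT groups: 21.9 CPM with vehicle (others 15 to 15.8), 9.84 CPM with Dex (2.92 to 3.65) and 27.8 CPM with IL4 (20.5 to 21.6). WT Dex replicate 1 was also high at the Spcs3 peak 116 kb from the start (1.73 CPM, others 0.306 to 0.515), at Plk2 (2.06 CPM, others 0.82 to 0.994) and at Trim37 (3.59 CPM, others 2.41 to 2.45). WT vehicle replicate 1 was high at the A4galt peak at -44.5 kb (6.88 CPM, others 4.05 to 4.5).

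With IL4, WT replicate 1 was high at E230016K23Rik (16.6 CPM, others 11.8 to 12.2) and Parp11 (6.42 CPM, others 5.28 to 5.47) and low at Plcd3 (1.52 CPM, others 2.49 to 2.65). WT IL4 replicate 3 was high at 2610035D17Rik (1.97 CPM, others 1.52 to 1.56). KO IL4 replicate 1 was high near Usp47 (6.79 CPM, others 3.55 to 3.97) and inside A530072M11Rik (8.01 CPM, others 4.47 to 5.04). KO IL4 replicate 2 was high at the Kctd12 peak 195 kb from the start (4.32 CPM, others 3.44 to 3.55) and low at the Spcs3 peak 78.8 kb from the start (4.93 CPM, others 6.09 to 6.32). An unassigned peak on chromosome 6 held 2.03 CPM in KO IL4 replicate 3 (others 0.771 to 0.912).

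The unassigned peak inside Trim9 held 1.96 CPM in WT vehicle replicate 4 (others 1.25 to 1.32) and 1.85 CPM in KO IL4 replicate 2 (others 1.11 to 1.22). The Nek11 peak held 4.17 CPM in KO vehicle replicate 4 (others 2.67 to 2.91). KO Dex replicate 3 was low at the Frmd6 peak at -144 kb (3.39 CPM, others 3.61 to 3.64) and high at Mitf (1.58 CPM, others 0.903 to 1.01).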

How the results depend on the processing

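Of 150 alternative values of the comparisons, 137 stayed within the limits and 13 moved. Of 1960 alternative values of single named members, 45 lost and 13 gained a call. None changed direction where the main or the alternative value was called, and changes of direction between uncalled values were not counted. The count of members depended on the rule: adding 0.1 instead of 0.5 to CPM gave 1297 members (661 of 1101 tested lower in KO Dex, 60%), adding 2 gave 75 (74 of 75), a fall limit of 0.8 gave 1327 (932 of 1286, 72.5%) and of 1.5 gave 25 (24 of 25). TMM-scaled CPM gave 329, of which 323 were among the 454. Leaving out 1 WT library gave 333 to 754 members, of which 291 to 608 were lower in KO Dex. The highest values were without WT Dex replicate 1 (754, and 608 of 742) and the lowest without replicate 2 (333). Within 3 kb of an assigned TSS lay 6.11% of the 409 members with a distance and 20.5% of all such peaks, and in the authors' table alone 4.83% and 16.2%.

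Leaving out 1 KO library gave 358 to 391 members lower in KO Dex (median -1.05 to -0.99) and 378 to 399 higher with IL4 than with Dex. With KO IL4 it gave 37 to 54 lower and 33 to 56 higher. DESeq2 gave 347 lower with Dex and 34 higher with IL4. With the replicate number as a block, 401 members were lower with Dex, 55 lower and 64 higher with IL4, and 404 higher with IL4 than with Dex. Deviations of same-numbered libraries correlated at 0.0058 to 0.151 over 12 pairs, 5 of them above 0.1, and 22 of 24 correlated best with their own number, a hint from the data and not the design. The share called was lowest, at 61.1%, in the lowest class of KO vehicle level. The median log2 fold change was also smallest in size there (-0.94), and what limited the calls was not tested.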
